A study of Homo sapiens with 2 samples.

Results

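Cells meet electrophiles, peroxides, heme and foreign compounds with linked enzyme systems. Glutathione transferases couple electrophiles to the tripeptide glutathione, peroxiredoxins reduce hydrogen peroxide and lipid peroxides, and heme oxygenase opens the heme ring to release biliverdin, carbon monoxide and iron. ABC pumps use ATP to carry drugs and conjugates out of the cell, and in lung cancer these systems are studied mainly for drug resistance. Several of their genes are known targets of NRF2, the transcription factor that is activated when electrophiles or oxidants modify its inhibitor KEAP1.

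This account covers 7 such genes in H1299 cells, a human lung cancer line of the non-small cell type, comprising 3 glutathione transferases (GSTT1, MGST2 and MGST3), the peroxiredoxin PRDX2, the heme oxygenase HMOX1, and 2 efflux pumps (ABCG2 and ABCC2). They were found by their platform gene annotation and make up 7 of the 243 transcript clusters in the deposited table, a transcript cluster being the set of array probes summarised as 1 gene. The groups were 1 culture transfected with a miR-138 mimic, a synthetic RNA that supplies the mature microRNA, and 1 transfected with an NC mimic, the negative control. Both were grown in medium with 10% serum, transfected by lipofection at 70% confluence and harvested after 48 h, and each was read on 1 whole-transcript array. Both groups therefore carried a transfected mimic, and untransfected cells were not analysed here.

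The labels name miR-138 without an arm or a sequence. The mature forms in RefSeq (build GRCh38.p14) are shown because the mimic is the only stated difference between the groups, with the seed, bases 2 to 8 from the 5′ end, in capitals.
hsa-miR-138-5p: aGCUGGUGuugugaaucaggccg
hsa-miR-138-1-3p: gCUACUUCacaacaccagggcc
hsa-miR-138-2-3p: gCUAUUUCacgacaccaggguu
The 5p form is encoded by both miR-138 genes, at chr3:44114234-44114256 and chr16:56858527-56858549 on the plus strand, and it shares its seed with neither 3p form. Transcript sequences were not used here, so seed matches in the 7 mRNAs were not searched.

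The 7 genes were chosen with these same values known, and the table itself lists only clusters that differ by at least 2-fold, the smallest absolute log2 difference being 1.0. The values below are therefore a description of 2 arrays. With 1 array per mimic there is no replicate spread, no test was made, and "higher" and "lower" mean higher or lower on the miR-138 array than on the NC array. Signals are log2 values, and each difference is the miR-138 value minus the NC value. A log2 signal also depends on a gene's probes, so levels are compared between arrays and not between genes. RNA per cell and the number of cells cannot be told apart in such extracts.

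Of the 7 genes, 6 were lower with the miR-138 mimic and 1, HMOX1, was higher. Among all deposited clusters 57.2% were lower by at least 2-fold and 42.8% were higher, and since the genes were picked on this comparison nothing is read from their count. The 6 lower genes had log2 differences between -1.41 and -1.05, a span of 0.36, and a median of -1.30. That narrow range is common in a table that starts at 2-fold, as 109 of its 139 lower clusters differed by less than 1.5 log2 units. Over all clusters of the table the median difference was -1.05, and over the 139 lower ones it was -1.24. HMOX1 stood 2.98 to 3.34 log2 units above each of the other 6 differences. No absolute difference in the table is below 1.0, so a wide gap between any higher and any lower gene is built in. Adding a constant to 1 array leaves the gap as it is by arithmetic, whereas rescaling an array can change it.

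**Figure D1:**
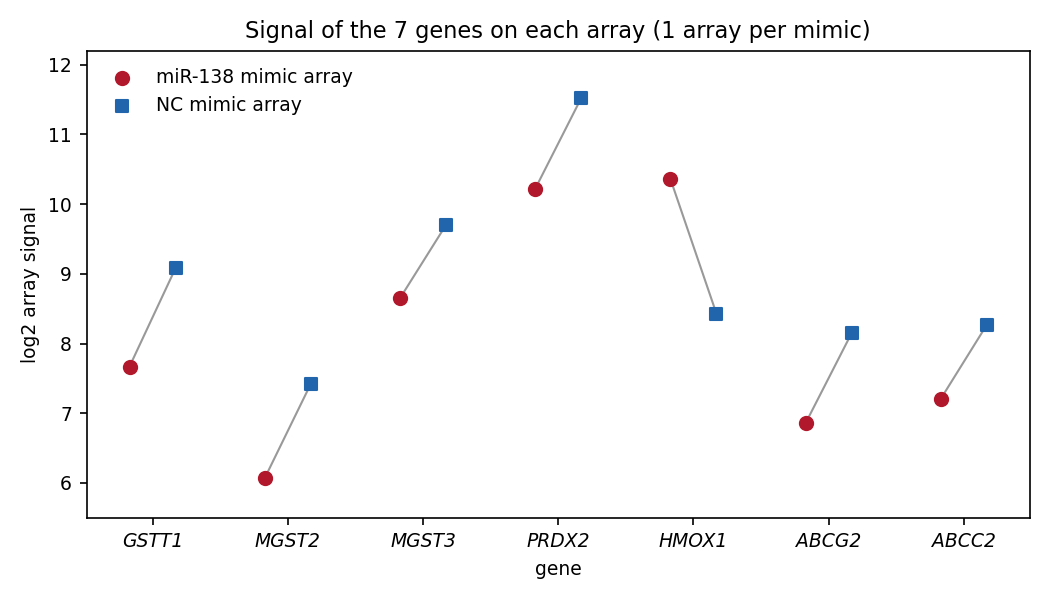
Log2 array signal (y axis) of each gene (x axis) on the miR-138 mimic array (red circles) and the NC mimic array (blue squares), with a grey line joining the pair; there is 1 array per mimic and so no error bar. Every pair but that of HMOX1 has the miR-138 value below the NC value, and HMOX1 has it above, at 10.36 against 8.43.

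The glutathione transferases were all lower. GSTT1 encodes a soluble transferase of the theta class that acts on small halogenated compounds and on some peroxides. It gave a log2 signal of 7.67 with the miR-138 mimic and 9.08 with the NC mimic. The difference of -1.41, or 2.66-fold, was the largest of the 6 lower genes and the 37th by size among the 139 lower clusters. On a linear scale the signal was 204 units with the miR-138 mimic and 541 units with the NC mimic.

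MGST2 and MGST3 belong to the MAPEG family, small enzymes embedded in membranes that handle lipid-like substrates. MGST2 can join glutathione to leukotriene A4 to form leukotriene C4, an inflammatory lipid mediator, and both enzymes can reduce lipid hydroperoxides with glutathione. MGST2 had a log2 signal of 6.07 with the miR-138 mimic and 7.42 with the NC mimic, a difference of -1.35 (2.55-fold). MGST3 had 8.65 with the miR-138 mimic and 9.70 with the NC mimic, a difference of -1.05 (2.07-fold). The MGST3 difference exceeded the limit of the table by only 0.05 and ranked 122nd by size among the 139 lower clusters, whereas MGST2 ranked 47th. The miR-138 array thus held 39.2% of the NC signal for MGST2 and 48.3% for MGST3.

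The other 25 symbols of the 28 on a list of glutathione transferases and MAPEG enzymes were not among the named clusters. That list includes GSTP1, the pi-class transferase best known in tumours, and LTC4S, the dedicated leukotriene C4 synthase, and neither was found there. The list's 3 clusters are GSTT1, MGST2 and MGST3, 3 lower and 0 higher with a median of -1.35, and so add nothing to the values above. Of all deposited clusters 57.2% were lower. Lists were matched to the 220 clusters with 1 gene symbol. None of the 10 clusters with several symbols held a listed gene (0 of 10), and the 13 unnamed clusters could not be matched. No named cluster carried any of the 22 genes listed for glutathione synthesis and recycling, such as GCLC and GCLM, which make its precursor, or any of the 16 listed for NADPH supply. A difference below 2-fold in those genes could not be seen.

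PRDX2 encodes an abundant cytosolic peroxiredoxin that reduces hydrogen peroxide through a reactive cysteine and is recycled by thioredoxin. The gene gave a log2 signal of 10.22 with the miR-138 mimic and 11.52 with the NC mimic, and the difference was -1.30 (2.46-fold). In linear units this was 1193 with the miR-138 mimic and 2937 with the NC mimic. Of 39 listed peroxidases, thioredoxin system members and other antioxidant enzymes, SESN3 was the only other one among the named clusters. SESN3, a sestrin that restrains mTORC1 and has been linked to peroxiredoxin function, had 6.22 with the miR-138 mimic and 8.02 with the NC mimic, a difference of -1.80. Both clusters of this list, PRDX2 itself and SESN3, were lower, with a median of -1.55. Of all deposited clusters 57.2% were lower, so nothing is read from this count.

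HMOX1 encodes the inducible heme oxygenase, a stress gene that NRF2 activates and the heme-binding factor BACH1 represses. The miR-138 array gave a log2 signal of 10.36, against 8.43 on the NC array, and the difference was 1.93 (3.81-fold). The linear signal was 1314 units with the miR-138 mimic and 345 units with the NC mimic. It ranked 13th by size among the 104 higher clusters, whose median was 1.23. It was also the only one of the 7 genes to differ by at least 3-fold, a limit passed upward by 9.88% of the table's clusters and downward by 9.88%.

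Of 24 genes for heme synthesis, breakdown and transport, HMOX1 was the only one among the named clusters. Biliverdin reductases, which take up its product, and FLVCR1, a heme exporter, are on that list and were not found there. Heme breakdown releases iron, and of 22 genes for iron uptake, storage and reduction the table held STEAP4, a metalloreductase of iron and copper. STEAP4 was lower, at 9.40 with the miR-138 mimic and 11.12 with the NC mimic (-1.72). The ferritin genes FTH1 and FTL, which store the released iron and are also NRF2 targets, were not among the named clusters.

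Both efflux pumps were lower, as were 57.2% of all deposited clusters. ABCG2, also called breast cancer resistance protein, exports drugs such as mitoxantrone and topotecan as well as urate and porphyrins, the ring compounds from which heme is made. It had a log2 signal of 6.86 with the miR-138 mimic and 8.15 with the NC mimic, a difference of -1.29 (2.45-fold). ABCC2, also called MRP2, exports glutathione and glucuronide conjugates at the apical membrane of liver, kidney and gut cells. It had 7.21 with the miR-138 mimic and 8.27 with the NC mimic, a difference of -1.06 (2.08-fold). ABCC2, like MGST3, lay at the edge of the table, 0.06 beyond its limit, and ranked 120th of the 139 lower clusters, while ABCG2 ranked 60th. The 2 pumps were the only ones of 48 listed ABC transporter genes among the named clusters, with a median of -1.18. None of 22 listed carriers for drug uptake or export outside that family was found there.

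**Figure D2:**
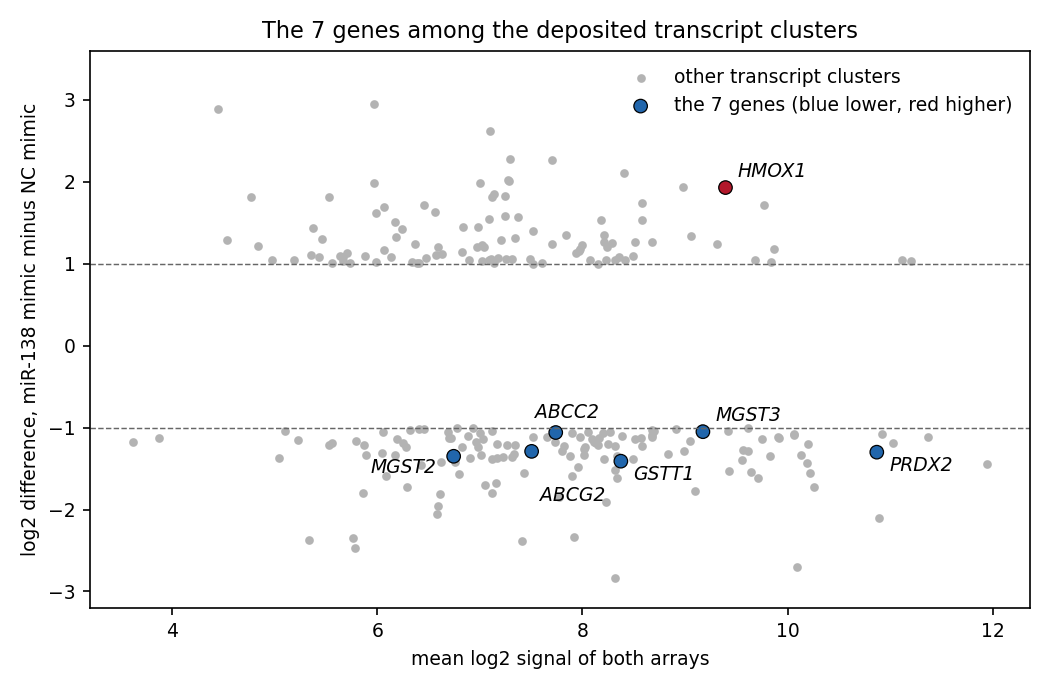
Log2 difference, miR-138 mimic minus NC mimic (y axis), against the mean log2 signal of both arrays (x axis) for the transcript clusters of the table, with the 7 genes as large points (blue lower, red higher) and the 2-fold limits dashed. MIR138-1, at 7.94, lies beyond the y axis and is not drawn; MGST3 and ABCC2 sit next to the lower limit, and no cluster lies between the limits.

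Read by pathway, the 2 genes of the NRF2 list found in the table lay on opposite sides. HMOX1 differed by 1.93 and ABCC2 by -1.06, a gap of 2.99 log2 units, so their median of 0.43 describes neither. ABCG2, at -1.29, was not placed on that list, so the even split depends on how the list was filled. The list held 41 symbols, among them NQO1, GCLM, TXNRD1 and SLC7A11, which are commonly used as readouts of NRF2. These were not among the named clusters, and a difference below 2-fold in them could not be seen. Enzymes of drug oxidation, reduction and conjugation were represented by 4 of 101 listed genes, 3 lower and 1 higher, with a median of -1.44. Among all deposited clusters 57.2% were lower, and nothing is read from a count of 4 genes. MTARC1 and MTARC2, mitochondrial reductases of N-hydroxylated compounds, differed by -1.77 (8.21 with the miR-138 mimic and 9.98 with the NC mimic) and -1.10 (6.33 with the miR-138 mimic and 7.43 with the NC mimic). TMT1A, a methyltransferase that acts on thiols, differed by -1.96 (5.61 with the miR-138 mimic and 7.57 with the NC mimic). The higher one, UGT8, differed by 1.20 (7.57 with the miR-138 mimic and 6.37 with the NC mimic), and although it belongs to the glucuronosyltransferase family by sequence it adds galactose to ceramide. None of 18 listed nuclear receptors and xenobiotic sensors and none of 27 listed producers of superoxide or peroxide was among the named clusters.

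**Figure D3:**
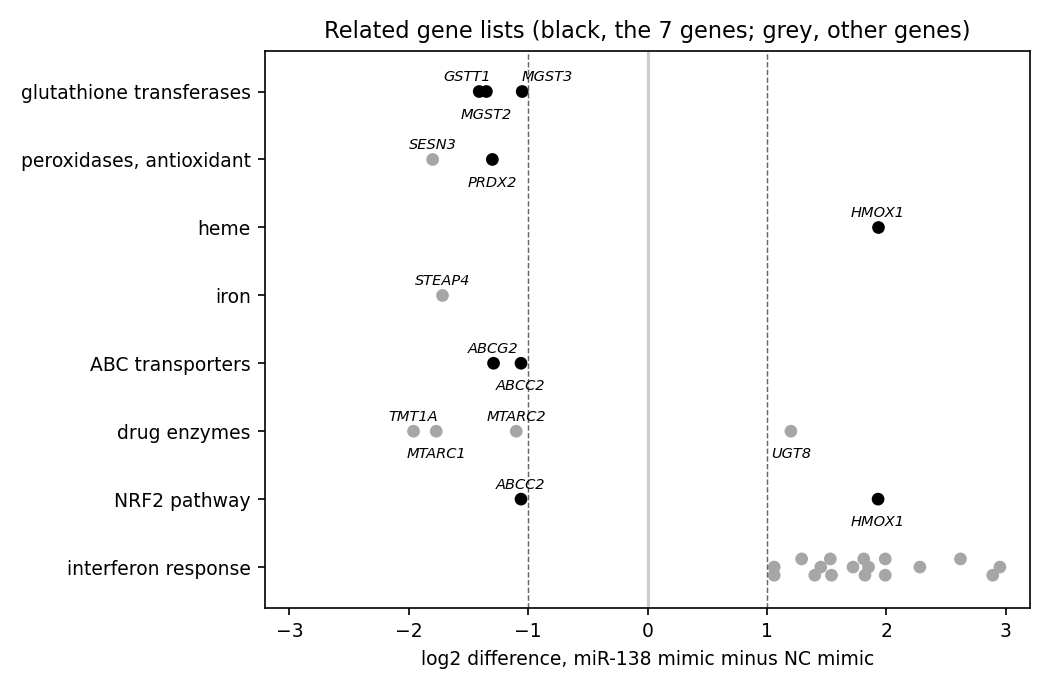
Log2 difference, miR-138 mimic minus NC mimic (x axis), of the genes of 8 lists (rows) found in the table, with the 7 genes in black, other genes in grey and the 2-fold limits dashed; the 17 interferon genes are spread vertically for legibility only. The glutathione transferase and ABC transporter rows lie on the lower side, the NRF2 row has 1 gene on each side, and the 17 interferon genes lie on the higher side. The glutathione transferase, heme, ABC transporter and NRF2 rows hold no gene besides the 7, so they only repeat the values of those genes.

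Other differences between the arrays went with these. MIR138-1, which encodes miR-138, had 14.07 on the miR-138 array and 6.13 on the NC array, in the direction of the labels, and whether its probes detected the mimic itself was not tested. All 17 interferon response genes found of 54 listed were higher, with a median of 1.81. Their summarised signals were 5.89 to 9.35 with the miR-138 mimic, against 3.0 to 7.82 with the NC mimic. The part of the interferon genes in the HMOX1 value was not tested. Of all deposited clusters 42.8% were higher and 57.2% were lower, shares to set beside the interferon count and the marker counts that follow. Of 14 epithelial markers 5 were in the table, with TSPAN8 (-2.37), DSP (-1.14), JUP (-1.09) and MAL2 (-1.06) lower and OCLN (1.24) higher, a median of -1.09. Of 12 fibroblast and mesenchymal markers 3 were present, DCN (-2.47), S100A4 (-1.61) and TGFBI (-1.0), all lower. Their part in the values of the 7 genes was not tested. None of 14 blood and endothelial markers was among the named clusters. Because the table holds only clusters that differ, the identity of H1299 cells could not be checked against stable markers.

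The 7 clusters are coded to 5 chromosomes. GSTT1 and HMOX1, both coded to chromosome 22, lay on opposite sides, and of the 3 other clusters coded to it 2 were lower and 1 was higher. MGST2 and ABCG2 are coded to chromosome 4, where the other 8 clusters were 4 lower and 4 higher. MGST3 is coded to chromosome 1, where 17 of 25 others were lower, and ABCC2 to chromosome 10, where 3 of 7 others were lower. PRDX2 is coded to chromosome 19, where 3 of the 16 other clusters were lower. Of all deposited clusters 57.2% were lower, and nothing is read from these counts by chromosome.

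For each gene, the 2 named clusters with the smallest Euclidean distance between pairs of log2 values over the 2 arrays were listed. This distance depends largely on absolute signals of different probes, which are not comparable between genes, so nothing is read from it, and the differences are given as values only. The clusters were BAG1 (-1.35) and NPR1 (-1.52) for GSTT1, ITPR1 (-1.24) and NR4A3 (-1.13) for MGST2, and KYNU (-1.07) and HMG20B (-1.0) for MGST3. They were SGK1 (-1.08) and FDPS (-1.19) for PRDX2 and ARRDC3 (1.94) and H2AC6 (1.34) for HMOX1. For the pumps they were SPTSSA (-1.29) and PC (-1.11) for ABCG2, and TNS1 (-1.09) and GLCCI1 (-1.18) for ABCC2.

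RefSeq promoter windows, 250 bases before to 50 bases after a start site on build GRCh38.p14, were matched for 4 of the 7 genes, with 8 windows in all, 5 of them for alternative ABCG2 starts. GSTT1, MGST2 and HMOX1 had no entry. Each window was searched on both strands for TGACNNNGC, the core of the antioxidant response element that NRF2 binds, and for TGAGTCA, an AP-1-type site. The core was in 1 of the 8 windows, against 13.3% of 35116 windows in the table of promoters, and TGAGTCA was in 0 of the 8, against 4.95%. Some of the ABCG2 windows overlap, so the 8 are not separate promoters, and nothing is read from these shares. Of the 5 ABCG2 windows only the 1 with a match is shown, with the matching letters in capitals, beside the ABCC2 window, which had none. The other ABCG2 windows had no match and are not shown. The same holds for the windows of MGST3 and PRDX2, which were also lower. HMOX1 had no window, so its promoter could not be set beside those of the pumps.
ABCG2, chr4:88159241-88159540, minus strand: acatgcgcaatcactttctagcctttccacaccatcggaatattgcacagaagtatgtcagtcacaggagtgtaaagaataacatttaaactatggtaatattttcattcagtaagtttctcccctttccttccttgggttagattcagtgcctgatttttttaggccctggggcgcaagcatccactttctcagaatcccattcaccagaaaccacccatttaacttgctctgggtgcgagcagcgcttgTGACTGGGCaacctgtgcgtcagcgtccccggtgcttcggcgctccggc
ABCC2, chr10:99782390-99782689, plus strand: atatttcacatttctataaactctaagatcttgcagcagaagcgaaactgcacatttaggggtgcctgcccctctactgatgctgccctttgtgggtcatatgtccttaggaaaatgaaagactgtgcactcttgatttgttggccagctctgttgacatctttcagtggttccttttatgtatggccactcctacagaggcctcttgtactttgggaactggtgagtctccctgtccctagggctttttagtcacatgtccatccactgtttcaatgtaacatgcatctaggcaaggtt
The ABCG2 match begins at base 2, counting this start site as base 1. It lies 380, 430 and 650 bases upstream of other ABCG2 starts and 72337 bases downstream of the remaining start, outside all of their windows. GC content was 48.3% in the ABCG2 window shown, 45.0% in the ABCC2 window, 62.7% in the MGST3 window and 73.7% in the PRDX2 window. A match is a run of letters and not a bound site, and the arrays do not say which ABCG2 start was used.

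The lower genes lie near the 2-fold limit, so how the arrays were made comparable can affect which of them pass it. Subtracting from each array its own median over the deposited clusters added 0.06 to every difference, which placed MGST3 at -0.99 and ABCC2 at -1.0, so 5 of the 6 lower genes kept a 2-fold difference. Scaling both arrays to the same median and spread left 3 of the 6 at 2-fold or more, GSTT1 at -1.29, MGST2 at -1.36 and ABCG2 at -1.24. Under that scaling PRDX2 was at -0.98, MGST3 at -0.86 and ABCC2 at -0.99, while HMOX1 was at 2.14. All 7 directions were kept under both, as differences beyond 1 leave little room for a turn. The medians and spreads came from clusters already limited to 2-fold differences and not from the full arrays. Scaling also shifts a difference by an amount that depends on the gene's level. The counts of 5 and 3 genes therefore do not show which genes would pass under another normalization of the full arrays.

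**Figure D4:**
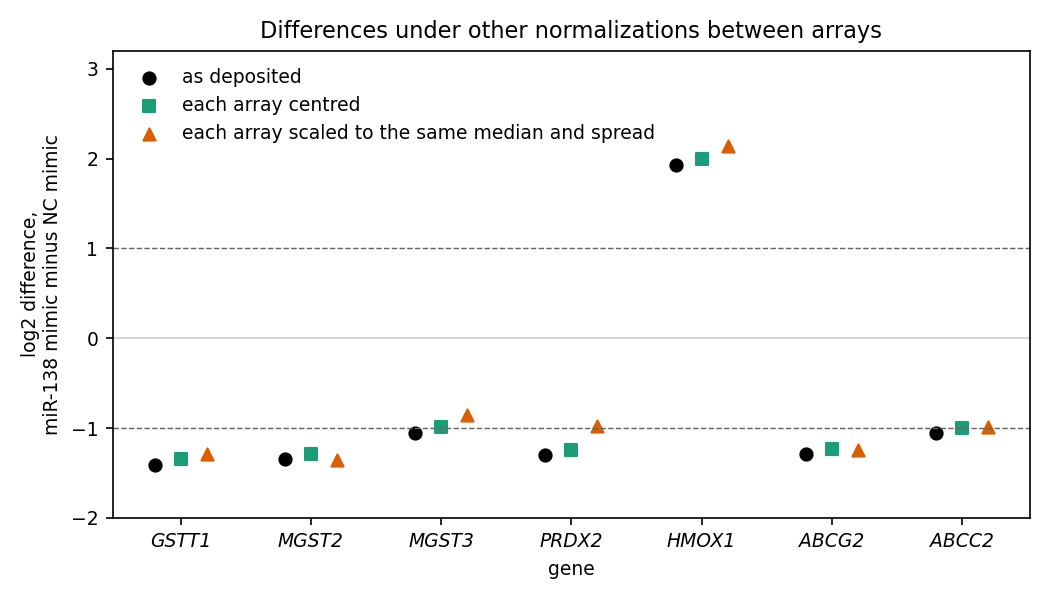
Log2 difference, miR-138 mimic minus NC mimic (y axis), of each gene (x axis) as deposited (black circles), with each array centred on its own median (green squares) and with each array scaled to the same median and spread (orange triangles), with the 2-fold limits dashed. HMOX1 stays above the upper limit at 1.93 to 2.14, and MGST3, PRDX2 and ABCC2 lie inside the lower limit after scaling.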

How the data were processed

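The authors deposited 1 log2 signal per transcript cluster and array, with 2 decimals. Per the submitters' processing notes, Affymetrix Expression Console produced the values. Version, probe summary, normalization and filter were not given in the sources used here, and the log2 base was inferred from the range of the values (3.0 to 14.07). Of 243 clusters, 220 had 1 platform gene symbol, 10 had more than 1 and were left without a name, and 13 were unnamed here. All 7 symbols matched current RefSeq names through gene identifiers. Chromosomes are those coded in the feature IDs, which name no build. Signal from paralogs or pseudogenes that share probes could not be separated.

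Differences, counts and list medians were computed with Python 3.11.15, NumPy 2.4.6 and pandas 2.3.3, and plotted with Matplotlib 3.10.9. The computation was tested on simulated data with known shifts. These had no noise beyond rounding and mostly unchanged features, unlike the deposited table, so the test checks the arithmetic only. The genes and the 16 lists were chosen with earlier results of these data known. All 7 genes, the miR-138 gene, list members in the table outside the interferon list, and the 2 nearest clusters per gene were named. A planned comparison of protein sequences was not run. Alternatives were centring, scaling, 2 level filters, a 3-fold limit and single-gene clusters. Precision is limited by the number of arrays, 1 per mimic.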

Additional observations from a re-analysis of the deposited data

How the results depend on the processing

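No paired analysis was possible because each mimic had a single array, and none could be left out. No gene difference and no list median changed sign in the alternatives that gave it a value. At 3-fold the 6 lower genes and the glutathione transferase and ABC transporter lists had none, and above the median level MGST2 had none. A value was taken as moved where it shifted by at least 0.1 on the log2 scale, and a count where it changed by over 1.5 times. Centring moved none of the 19 values computed. It shifts every difference and list median by the same amount, below 0.1, so none of these could be counted as moved. The lower genes went from 6 to 5 and the lower clusters from 139 to 121, within the limit for counts. Scaling gave -0.86 for MGST3, -0.98 for PRDX2, -1.29 for GSTT1 and 2.14 for HMOX1, left 3 genes lower by 2-fold, and gave list medians of -1.38 for peroxidases, 0.58 for the 2 NRF2 genes (0.43 as deposited), -0.94 for epithelial markers and -1.38 for mesenchymal markers. It stretches the miR-138 array and compresses the NC array, and the spread it equalises is that of a table limited by fold. Without the lowest 25% of levels, 69 clusters were higher, and the medians were 1.54 for interferon and -1.31 for mesenchymal genes. Above the median level, 81 clusters were lower and 40 higher, and the medians were -1.23 for glutathione transferases, -1.30 for peroxidases, -1.77 for drug enzymes, 1.53 for interferon and -1.31 for mesenchymal genes. At 3-fold, 0 of the 6 lower genes were left, with 24 clusters lower and 24 higher, the peroxidase, NRF2 and epithelial lists were left with 1 gene each (SESN3 at -1.80, HMOX1 at 1.93 and TSPAN8 at -2.37), and medians were -1.87 for drug enzymes, 1.99 for interferon and -2.04 for mesenchymal genes. These filters remove clusters by construction and change no gene's own difference. Signals near background could not be recognised, as detection calls were not used here.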

Other observations

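A few further genes of sulfur, peroxide and detoxification chemistry lay outside the lists and were chosen once their values had been seen, so they show nothing about such genes as a class. SELENBP1, a methanethiol oxidase that yields hydrogen peroxide and hydrogen sulfide, had 6.34 with the miR-138 mimic and 7.68 with the NC mimic, a difference of -1.34. AQP3, a channel for water and glycerol that also passes hydrogen peroxide, had 6.85 with the miR-138 mimic and 8.70 with the NC mimic, a difference of -1.85. CMBL, a hydrolase that activates some prodrugs, had 9.15 with the miR-138 mimic and 10.50 with the NC mimic, a difference of -1.35. CDO1, which oxidises cysteine and so draws on the same amino acid as glutathione synthesis, was on the other side, with 7.01 for the miR-138 mimic and 5.94 for the NC mimic, a difference of 1.07.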
